A study of Mus musculus with 8 samples.

Results

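The 10 genes of the neurohumoral control of the heart described here are the adrenergic receptors Adrb1, Adra1a and Adra1b, the muscarinic receptor Chrm2, the adenosine receptor Adora1, the angiotensin genes Agtr1a and Ace, and the endothelin genes Edn1, Ece1 and Ednrb. They were chosen by name, by matching each symbol to its Ensembl gene, and all 10 were found among the 49315 genes counted. RNA was sequenced from hearts of mouse embryos (Mus musculus) at stage E18.5, shortly before birth. The 4 WT hearts carried no stated allele, and the 4 mutant hearts were homozygous for a methionine-to-isoleucine change in CHD4 (CHD4 M195I/M195I), the chromatin-remodelling ATPase of the NuRD complex. No treatment, strain or Cre driver is named in the labels. The labels number the libraries 1 to 4 within each genotype without naming litters, so p-values measure only the spread between these samples.

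Noradrenaline from sympathetic nerves acts on cardiac β1 and α1 receptors, which raise heart rate and contractility and promote growth of cardiomyocytes. Acetylcholine and adenosine act through M2 and A1 receptors, which couple to inhibitory G proteins, open atrial potassium channels and slow the heart. Angiotensin II, made by angiotensin-converting enzyme, and endothelin-1, cut from its precursor by endothelin-converting enzyme, act on receptors that activate phospholipase C, and endothelin B receptors of endothelium also clear the peptide from the circulation. Endothelin signalling is known in the embryo for its part in neural crest and outflow tract development.

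The 4 WT libraries held 18375951 to 20815388 counts each, and the 4 mutant libraries held 18673488 to 21341235. Levels are counts scaled to library size (CPM) with factors from the trimmed mean of M-values (TMM), and group values are means ± SD (n = 4 hearts each). A log2 fold change above 0 means a higher level in the mutants, and its standard error (SE) follows it. Adjusted p-values are from edgeR's quasi-likelihood test with Benjamini-Hochberg adjustment over 16372 tested genes, and a gene was called under 0.05. Heart identity was clear from cardiac troponin T (Tnnt2), with means of 7098 CPM in WT and 6916 CPM in mutants. Airway RNA set some libraries apart. The airway secretoglobin Scgb3a2, as CPM without TMM, ran from 176 to 498 in 5 libraries (all but WT replicate 2 and mutant replicates 1 and 2), and from 0.328 to 6.48 in these last 3. Mutant replicate 4 also held the alveolar surfactant gene Sftpc at 124 CPM. The Y-linked gene Ddx3y was 35.5 CPM in WT replicate 4 and 70.3 to 80.4 CPM in the other 7 libraries. Blood RNA differed by genotype: the sum of 6 erythroid markers ran from 2026 to 3879 CPM in the WT hearts and from 1241 to 1959 CPM in the mutant hearts, without overlap, and their log2 fold changes lay between -0.95 and -0.30, none of them called. Its part in the results was not tested. Chd4 ranged from 445 to 460 CPM in WT and from 474 to 494 CPM in mutants (log2 fold change 0.09 ± 0.03 SE, adjusted p = 0.094, edgeR), and these counts do not show the mutated base.

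The endothelin B receptor and the A1 adenosine receptor transcripts were higher in the mutant hearts, and the angiotensin II type 1a receptor transcript was lower. Ednrb rose by 27.5%, Adora1 rose by 14.4%, and Agtr1a was 20.1% lower. Adrb1, Adra1b, Chrm2, Ace, Edn1 and Ece1 were tested and not called. The last, Adra1a, was too scarce to be tested. Thus 2 of 9 tested members rose, where 5.75% of all tested genes were called higher, and 1 of 9 fell, where 7.49% were called lower. Taking both directions, 13.2% of all tested genes were called. Of those called genes 43.5% were higher in the mutants, or 68.4% with library totals in place of TMM. The levels of the 4 WT and 4 mutant libraries did not overlap for these same 3 members, and such a gap was seen for 18.6% of all tested genes. With 9 tested members these counts describe the set and give no comparison of it with other genes. The median log2 fold change over the 9 was 0.17, beside 0.00 over all tested genes. In whole hearts, fewer cells of a type and less RNA per cell cannot be told apart.

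**Figure D1:**
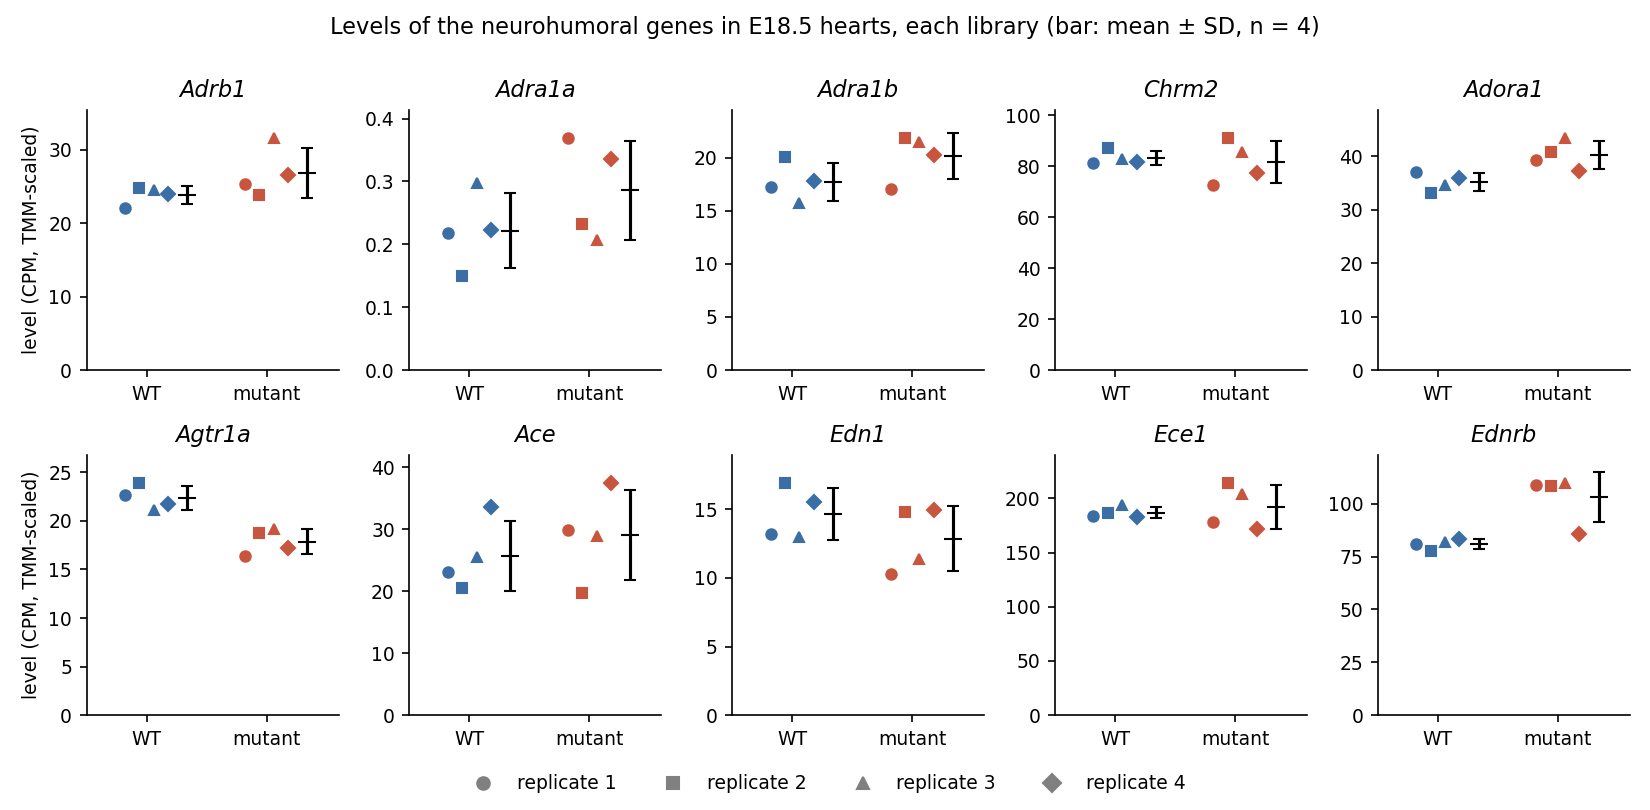
Level of each gene in CPM scaled by TMM (y axis from 0) in the 4 WT and 4 mutant libraries; point shapes are replicate numbers and bars give mean ± SD. The mutant points of Agtr1a lie below all WT points, and those of Ednrb and Adora1 lie above them, with Ednrb of mutant replicate 4 (85.6 CPM) apart from the other mutants.

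To compare levels between genes, CPM was divided by the exon length of each gene in kilobases. On this scale Ece1 was the most abundant member in WT, with 35.3 ± 0.96 CPM per kilobase. Ednrb followed with 20.05 ± 0.62, then Chrm2 with 13.7 ± 0.46 CPM per kilobase. Each of these 3 was separated from the next gene without overlap of the WT libraries. Adrb1 (9.57 ± 0.49 CPM per kilobase) and Agtr1a (9.06 ± 0.50) overlapped each other, so their order in WT is not resolved. A lower group overlapped in turn from one gene to the next: Edn1 (6.26 ± 0.80), Adora1 (6.08 ± 0.29), Adra1b (5.24 ± 0.54) and Ace (4.85 ± 1.07 CPM per kilobase). Adra1a stood far below, at 0.027 ± 0.0074 CPM per kilobase. In the mutants the first 5 genes kept this order by mean, though Chrm2 (13.5 ± 1.38) and Adrb1 overlapped there. Agtr1a, at 7.24 ± 0.52 CPM per kilobase there, no longer overlapped Adrb1 (10.8 ± 1.36) and instead overlapped Adora1 (6.95 ± 0.45).

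**Figure D2:**
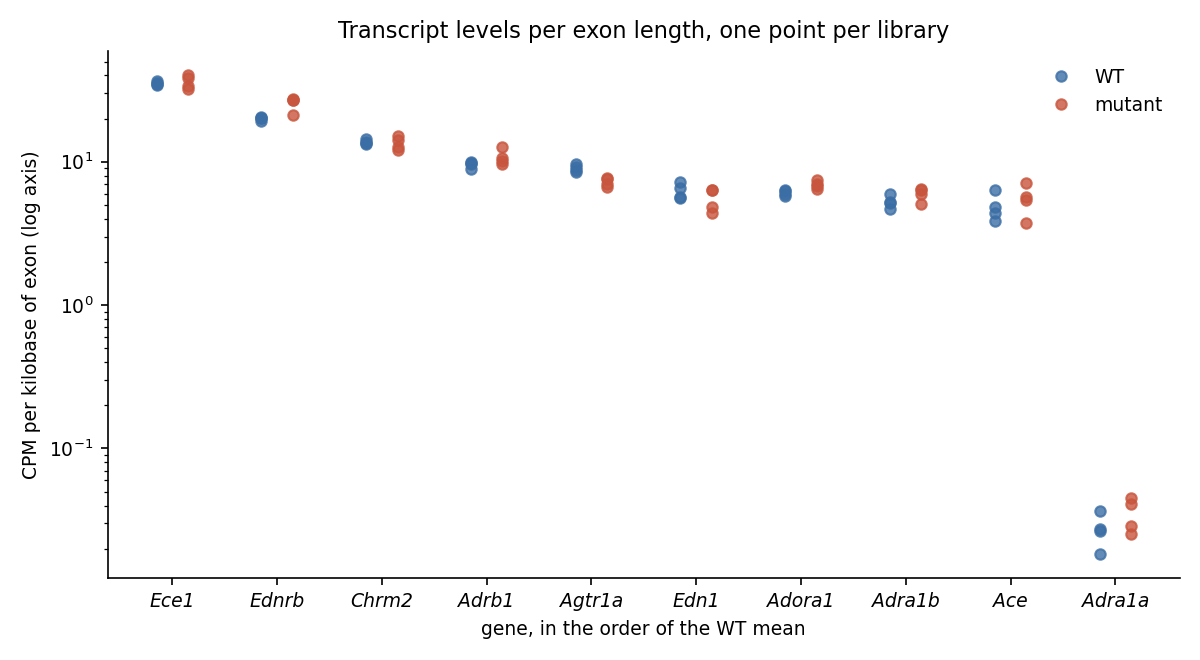
CPM per kilobase of exon on a log axis, 1 point per library, for the 10 genes in the order of their WT mean. Ece1, Ednrb and Chrm2 lead, 6 genes lie between 3.74 and 12.7 CPM per kilobase, and Adra1a reaches at most 0.045 CPM per kilobase in all 8 libraries.

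Adrb1 (chromosome 19, 56722372 to 56724862, plus strand, GRCm38) encodes the β1 receptor, the main adrenergic receptor of cardiomyocytes. Its level in WT replicates 1 to 4 was 22.1, 24.8, 24.5 and 24.0 CPM. In mutant replicates 1 to 4 it was 25.3, 23.9, 31.7 and 26.5 CPM. Mutant replicate 3 was the highest, and mutant replicate 2 lay within the WT range. The log2 fold change was 0.17 ± 0.08 SE (95% interval -0.0011 to 0.34, and 0.09 without mutant replicate 3) and was not called (adjusted p = 0.19, edgeR).

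Adra1b (chromosome 11, 43774606 to 43901210, minus strand) encodes the α1B receptor, which couples to Gq. Its WT levels were 17.3, 20.1, 15.7 and 17.8 CPM, and its mutant levels were 17.1, 21.9, 21.5 and 20.3 CPM. Mutant replicate 1 lay below the WT mean, and WT replicate 2 reached the level of the mutants. The log2 fold change of 0.19 ± 0.09 SE was not called (adjusted p = 0.20, edgeR). Both Adrb1 and Adra1b depended on which libraries were compared. Among the 5 hearts with airway RNA they were each called higher, at 0.30 (adjusted p = 0.034) and 0.30 (adjusted p = 0.035). Among the remaining 3, of which only 1 is WT, they stood at -0.01 and -0.04 (adjusted p = 0.97 and 0.90, edgeR). Whether the difference between these library sets exceeds their spread was not tested.

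Adra1a (chromosome 14, 66635251 to 66733462, plus strand) encodes the α1A receptor. It had 3 to 6 counts in each WT library and 4 to 7 in each mutant library, or 40 counts over all 8. These are 0.22 ± 0.060 CPM in WT and 0.29 ± 0.079 CPM in the mutants. The genotypes overlapped, and an exact permutation test over the libraries gave a two-sided p = 0.26, where the smallest p of this design is 0.029. A difference was not detectable at this depth. Of 9 adrenergic receptor genes, 5 were tested and none was called in either direction, with a median log2 fold change of 0.04.

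Chrm2 (chromosome 6, 36388084 to 36528414, plus strand) encodes the M2 receptor, through which the vagus slows the heart. It was far above the other muscarinic receptors, with 83.2 ± 2.79 CPM in WT, whereas the next, Chrm3, had a mean of 1.02 CPM. WT replicates 1 to 4 held 81.1, 87.3, 82.6 and 81.8 CPM, and mutant replicates held 72.5, 91.2, 85.7 and 77.2 CPM. The mutants spread to both sides of the WT range, with a coefficient of variation of 10.2% against 3.36% in WT. Mutants and WT differed by a log2 fold change of -0.03 ± 0.06 SE with a 95% interval from -0.16 to 0.11 (adjusted p = 0.86, edgeR). Its sign turned with library totals in place of TMM (0.03), without mutant replicate 1 (0.03) and without mutant replicate 4 (0.00). Exons of Chrm2 overlap the opposite-strand gene 9330158H04Rik over 142 bases, 2.3% of its exon length. No source used here says whether reads were counted by strand.

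Adora1 (chromosome 1, 134199223 to 134235431, minus strand) encodes the A1 adenosine receptor, which like M2 couples to inhibitory G proteins. Its level was 37.0, 33.2, 34.6 and 35.9 CPM in WT replicates 1 to 4. In mutant replicates 1 to 4 it was 39.4, 40.8, 43.5 and 37.3 CPM. Every mutant library lay above every WT library, though mutant replicate 4 and WT replicate 1 were close. The log2 fold change was 0.19 ± 0.06 SE (adjusted p = 0.032, edgeR). Leaving out any 1 of 5 libraries (WT replicates 2 to 4, mutant replicates 2 and 3) ended this call (adjusted p from 0.059 to 0.097). It was not called within the 5 libraries with airway RNA (0.17, adjusted p = 0.16) or the 3 without, of which 1 is WT (0.27, adjusted p = 0.094). Over 1162 bases, 20.1% of its exon length, Adora1 overlaps the opposite-strand gene Mybph, which had 95 counts in all 8 libraries together against 5931 for Adora1. Of 8 cardiomyocyte markers, none rose and 2 fell (Actn2 and Myl3), where 5.75% of all tested genes were called higher and 7.49% lower. The summed level of the 8 ranged from 32607 to 36074 CPM in WT and from 27648 to 33356 CPM in mutants. The part of this in the Adora1 result was not tested.

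Of the 10 tested adenosine genes, Adora1 included, 2 rose and 2 fell, with a median of 0.01. Adora2a, whose receptor couples to stimulatory G proteins, fell from 17.7 ± 1.502 to 14.2 ± 1.68 CPM (log2 fold change -0.32 ± 0.09 SE, adjusted p = 0.032, edgeR), with WT replicate 2 below mutant replicate 2. The nucleoside transporter Slc28a2 rose from 3.67 ± 0.41 to 5.31 ± 0.59 CPM (0.53 ± 0.14, adjusted p = 0.016, edgeR). Nt5e, the ecto-enzyme that makes adenosine from AMP, fell slightly, from 19.2 ± 1.17 to 16.4 ± 1.05 CPM (-0.22 ± 0.07, adjusted p = 0.049, edgeR). The Adora2a call needed each of WT replicates 1, 3 and 4 and mutant replicates 3 and 4 (without 1 of them, adjusted p from 0.075 to 0.11), and it was lost with library totals (-0.27, adjusted p = 0.064). It stood at -0.52 (adjusted p = 0.0011) in the 5 libraries with airway RNA and at 0.01 (adjusted p = 0.98, edgeR) in the 3 without, again with 1 WT heart. The Slc28a2 call was lost without WT replicate 4 or mutant replicate 3 (adjusted p = 0.054 and 0.051) and in the 3 libraries without airway RNA (0.21, adjusted p = 0.65, edgeR). The Nt5e call was lost without any 1 of 6 libraries (all but WT replicate 2 and mutant replicate 4, adjusted p from 0.067 to 0.14) and under DESeq2 and limma-voom.

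The ratio of Adora1 to Adora2a, on the scale per kilobase, was 0.87, 0.94, 0.84 and 0.85 in WT replicates 1 to 4. It was 1.15, 1.10, 1.43 and 1.31 in mutant replicates 1 to 4. On this scale Adora2a thus exceeded Adora1 in every WT heart, and the order was the opposite in every mutant heart. Before division by exon length, Adora1 had more counts than Adora2a in all 8 libraries (646 to 876 against 258 to 367). Which transcript is the more abundant therefore depends on the exon lengths used. The ratio was formed after both genes had been seen to differ, so it is given without a test.

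Agtr1a (ENSMUSG00000049115, chromosome 13, 30336441 to 30382867, plus strand) encodes the type 1a angiotensin II receptor, the main pressor receptor of the system in mice. WT replicates 1 to 4 held 22.7, 23.9, 21.1 and 21.8 CPM. Mutant replicates 1 to 4 held 16.4, 18.7, 19.1 and 17.2 CPM. The lowest WT library lay above the highest mutant library, and within each genotype the coefficient of variation was small, 5.51% in WT and 7.19% in mutants. The mean fell from 22.4 ± 1.23 to 17.9 ± 1.28 CPM, a log2 fold change of -0.32 ± 0.07 SE (95% interval -0.47 to -0.18, adjusted p = 0.0057, edgeR). The call held without each of the 8 libraries in turn (adjusted p from 0.0082 to 0.023) and under DESeq2 and limma-voom. It was not past the threshold within the 5 libraries with airway RNA (-0.27, adjusted p = 0.052) and stood at -0.45 (adjusted p = 0.023) among the other 3, where the WT arm is the single heart of replicate 2 and has no spread of its own. Its close paralogue Agtr1b, with which it can share reads, had a mean level of 0.12 ± 0.071 CPM in WT and of 0.076 ± 0.053 in the mutant hearts.

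Agtr1a is known from fibroblasts and pericytes of the heart. The share of all tested genes called higher was 5.75%, and that called lower was 7.49%, as background for the marker counts. Of 6 fibroblast and mesenchyme markers none rose and 2 fell (Tcf21 and Postn), and their sum ranged from 3556 to 4508 CPM in WT and from 3667 to 4043 CPM in mutants. Of 7 smooth muscle and pericyte markers none rose and 2 fell (Acta2 and Cspg4). The sum of the 7 ranged from 1450 to 1614 CPM in WT and from 1242 to 1430 CPM in mutants. Acta2 weighs most in this sum, with 127538 counts over all libraries against 24243 for the next, Rgs5. Rgs5, Pdgfrb, Notch3, Myh11 and Cnn1 overlapped between genotypes, so the gap in the sums is not shared by the list as a whole. No marker of either list was at 0. Their part in the lower Agtr1a was not tested.

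Ace (chromosome 11, 105967945 to 105989964, plus strand) encodes angiotensin-converting enzyme, which is abundant on endothelium, also that of the lung. Its levels were 23.1, 20.5, 25.5 and 33.6 CPM in WT and 29.9, 19.8, 28.8 and 37.5 CPM in mutant replicates 1 to 4. Among the 9 tested members it varied most within a genotype, with a coefficient of variation of 21.98% in WT and 25.0% in mutants. The highest library of each genotype was replicate 4 and the lowest was replicate 2. The log2 fold change of 0.18 ± 0.24 SE was not called (adjusted p = 0.72, edgeR), and its 95% interval from -0.40 to 0.75 leaves room for changes larger than those of the called members.

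Of the 12 tested renin-angiotensin genes, 1 rose and 1 fell, with a median of -0.08. Besides Agtr1a the call was Lnpep, an aminopeptidase that binds angiotensin IV and resides with the glucose transporter GLUT4, which rose from 37.7 ± 3.79 to 45.3 ± 2.24 CPM (log2 fold change 0.27 ± 0.07 SE, adjusted p = 0.016, edgeR). That call was lost without WT replicate 1 (adjusted p = 0.057). The type 2 receptor gene Agtr2 held 24.8, 7.24, 24.3 and 29.4 CPM in WT and 14.9, 10.7, 15.4 and 26.6 CPM in mutant replicates 1 to 4, and was not called (-0.34 ± 0.48 SE, adjusted p = 0.74, edgeR). Its lowest libraries were the replicates numbered 2, where Scgb3a2 was also lowest. The ratio of Agtr1a to Agtr2 per kilobase reached 4.45 in WT replicate 2, was at most 2.36 in the mutants, and overlapped between genotypes. Angiotensinogen (Agt) and renin (Ren1) were scarce, with WT means of 2.16 and 0.67 CPM, and neither was called.

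Edn1 (chromosome 13, 42301270 to 42307989, plus strand) encodes the precursor of endothelin-1, released mainly by endothelium and endocardium. Its levels were 13.2, 16.9, 13.0 and 15.5 CPM in WT and 10.3, 14.8, 11.3 and 14.9 CPM in mutant replicates 1 to 4. In both genotypes replicates 2 and 4 were higher than replicates 1 and 3, and the genotypes overlapped. Edn1 differed by -0.19 ± 0.13 SE on the log2 scale (95% interval -0.48 to 0.10) and was not called (adjusted p = 0.42, edgeR). The other ligand genes, Edn2 and Edn3, had WT means of 0.315 and 0.391 CPM and were too low to test.

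Ece1 (chromosome 4, 137862237 to 137965229, plus strand) encodes the membrane protease that releases endothelin-1. WT replicates 1 to 4 held 184, 187, 194 and 183 CPM, and mutant replicates held 178, 214, 204 and 172 CPM. The mutants again spread to both sides of the WT range, with mutant replicates 2 and 3 above it and 1 and 4 below it. Ece1 differed by 0.04 ± 0.06 SE on the log2 scale (95% interval -0.10 to 0.18, adjusted p = 0.77, edgeR), and it stood at -0.02 without mutant replicate 2. The paralogue Ece2 had a WT mean of 6.87 CPM and was not called.

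Ednrb (ENSMUSG00000022122, chromosome 14, 103814625 to 103844173, minus strand) encodes the endothelin B receptor, which is carried by endothelium, neural crest derivatives and melanocytes. WT replicates 1 to 4 were close together, at 81.0, 77.5, 81.9 and 83.3 CPM. Mutant replicates 1 to 3 were also close together, at 108.8, 108.5 and 109.9 CPM, and mutant replicate 4 was at 85.6 CPM. That library lay just above the highest WT library, so the genotypes did not overlap. The mean rose from 80.9 ± 2.495 to 103 ± 11.7 CPM, a log2 fold change of 0.35 ± 0.07 SE (95% interval 0.18 to 0.52, adjusted p = 0.013, edgeR). Without mutant replicate 4 it was 0.43 (adjusted p = 1.3e-05), and without WT replicate 2 the call was lost (0.33, adjusted p = 0.056). Within the 5 libraries with airway RNA it was 0.25 and not called (adjusted p = 0.23), and within the other 3 it was 0.49 (adjusted p = 0.042). The latter compares 2 mutant hearts with 1 WT heart, with the spread pooled over all 8 libraries, so it is no replicated check. With the mean log2 CPM of 11 lung epithelium markers as a covariate it was 0.34 (adjusted p = 0.0044, edgeR).

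Markers of cells known to carry Ednrb gave mixed values. Their counts stand beside 5.75% of all tested genes called higher and 7.49% called lower. Of 8 endothelial markers 1 rose (Tek) and 2 fell (Kdr and Esam), with sums from 1275 to 1388 CPM in WT and from 1238 to 1352 CPM in mutants. Of 4 endocardial markers 1 rose (Cdh11) and 1 fell (Nfatc1), with a median log2 fold change of the 4 of 0.22. Their sums ran from 348 to 356 CPM in WT and from 358 to 437 CPM in mutants, so the mutant sums lay above all WT sums. Npr3 and Plvap overlapped between genotypes and Nfatc1 fell, so this gap is not shared by the list as a whole either. None of 6 Schwann and neural crest markers was called (sums from 30.6 to 40.3 CPM and from 33.4 to 43.2 CPM). Of 4 tested melanocyte markers 1 fell (Mlana, -1.15 ± 0.26 SE), with sums from 80.5 to 84.0 CPM and from 66.9 to 85.4 CPM. Mitf makes up most of these sums, with 11094 counts over all libraries against 730 for the next, Dct. Of 6 markers of lung capillaries, which also carry Ednrb, 1 rose (Car4, log2 fold change 1.28) and 1 fell (Apln, -0.53). Their sums ran from 88.7 to 92.7 CPM in WT and from 69.3 to 84.5 CPM in mutants, so the mutant sums lay below all WT sums. Apln weighs most in these sums, with 5786 counts over all libraries against 3406 for the next, Tbx2. Tbx2, Fibin, Chst1 and Cyp4b1 overlapped between genotypes, so the gap in the sums is not shared by the list as a whole. No marker of these lists was at 0 in all libraries, and their part in the Ednrb result was not tested.

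Of the 5 tested endothelin genes only Ednrb was called, with a median over the 5 of -0.05. The endothelin A receptor gene Ednra, which mediates constriction in smooth muscle, had a WT mean of 91.0 ± 1.87 CPM and a mutant mean of 86.6 ± 2.49 CPM (-0.07 ± 0.04 SE, adjusted p = 0.23, edgeR). The ratio of Ednrb to Ednra per kilobase was 1.19, 1.15, 1.26 and 1.22 in WT replicates 1 to 4. In mutant replicates it was 1.65, 1.76, 1.72 and 1.35. All mutant hearts lay above all WT hearts in this ratio, replicate 4 included, and it carries no test because it was formed after the Ednrb values were seen.

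**Figure D3:**
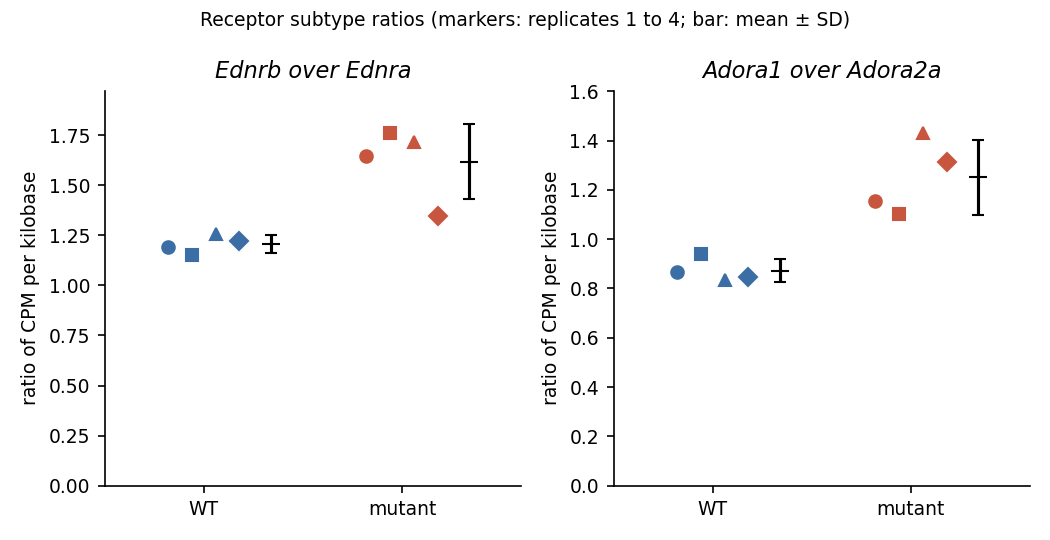
Ratio of the CPM per kilobase of Ednrb to Ednra (left) and of Adora1 to Adora2a (right) in each library, with mean ± SD as bars and the y axes from 0. The Ednrb ratio was 1.21 ± 0.045 in WT and 1.62 ± 0.19 in mutants, the Adora1 ratio 0.84 to 0.94 and 1.10 to 1.43, with no overlap between genotypes in either.

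For the receptor genes that rose, the promoter sequence is shown because both moved in the same direction. RefSeq (GRCm38.p6) gave a promoter for 8 of the 10 genes. The 250 bases before the RefSeq start are printed 5′ to 3′ on the gene's strand, which is the minus strand for both. They are chr14:103843702-103843951 for Ednrb and chr1:134235458-134235707 for the first of 2 starts of Adora1. The Ednrb window lies inside the gene as counted (103814625 to 103844173), whose start is further upstream than the RefSeq start. Capitals mark the GC box GGGCGG, the CCAAT box CCAAT and the TATA box TATAAA, each searched on both strands.
Ednrb: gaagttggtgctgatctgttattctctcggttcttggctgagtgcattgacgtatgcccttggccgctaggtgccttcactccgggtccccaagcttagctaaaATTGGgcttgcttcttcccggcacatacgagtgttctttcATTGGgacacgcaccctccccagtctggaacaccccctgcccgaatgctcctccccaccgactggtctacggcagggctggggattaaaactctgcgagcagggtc
Adora1: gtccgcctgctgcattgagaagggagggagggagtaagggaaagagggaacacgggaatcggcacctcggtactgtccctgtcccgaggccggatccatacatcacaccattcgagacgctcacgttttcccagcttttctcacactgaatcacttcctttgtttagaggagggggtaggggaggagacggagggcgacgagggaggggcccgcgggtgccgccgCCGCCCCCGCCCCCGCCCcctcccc
The Ednrb window held 2 CCAAT boxes in reverse and no GC box, and the Adora1 window held 3 GC boxes in reverse, close to the start, and no CCAAT box. Neither held the TATA letters. Their G and C content was 56.8% and 64.4%. The window of the second Adora1 start, not printed, held no GC box, no CCAAT box and no TATA box. Over 32851 promoter windows of this length, 33.8% held CCAAT, 32.7% held GGGCGG and 12.4% held TATAAA. These matches describe the letters of the windows and say nothing of which factors bind there.

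**Figure D4:**
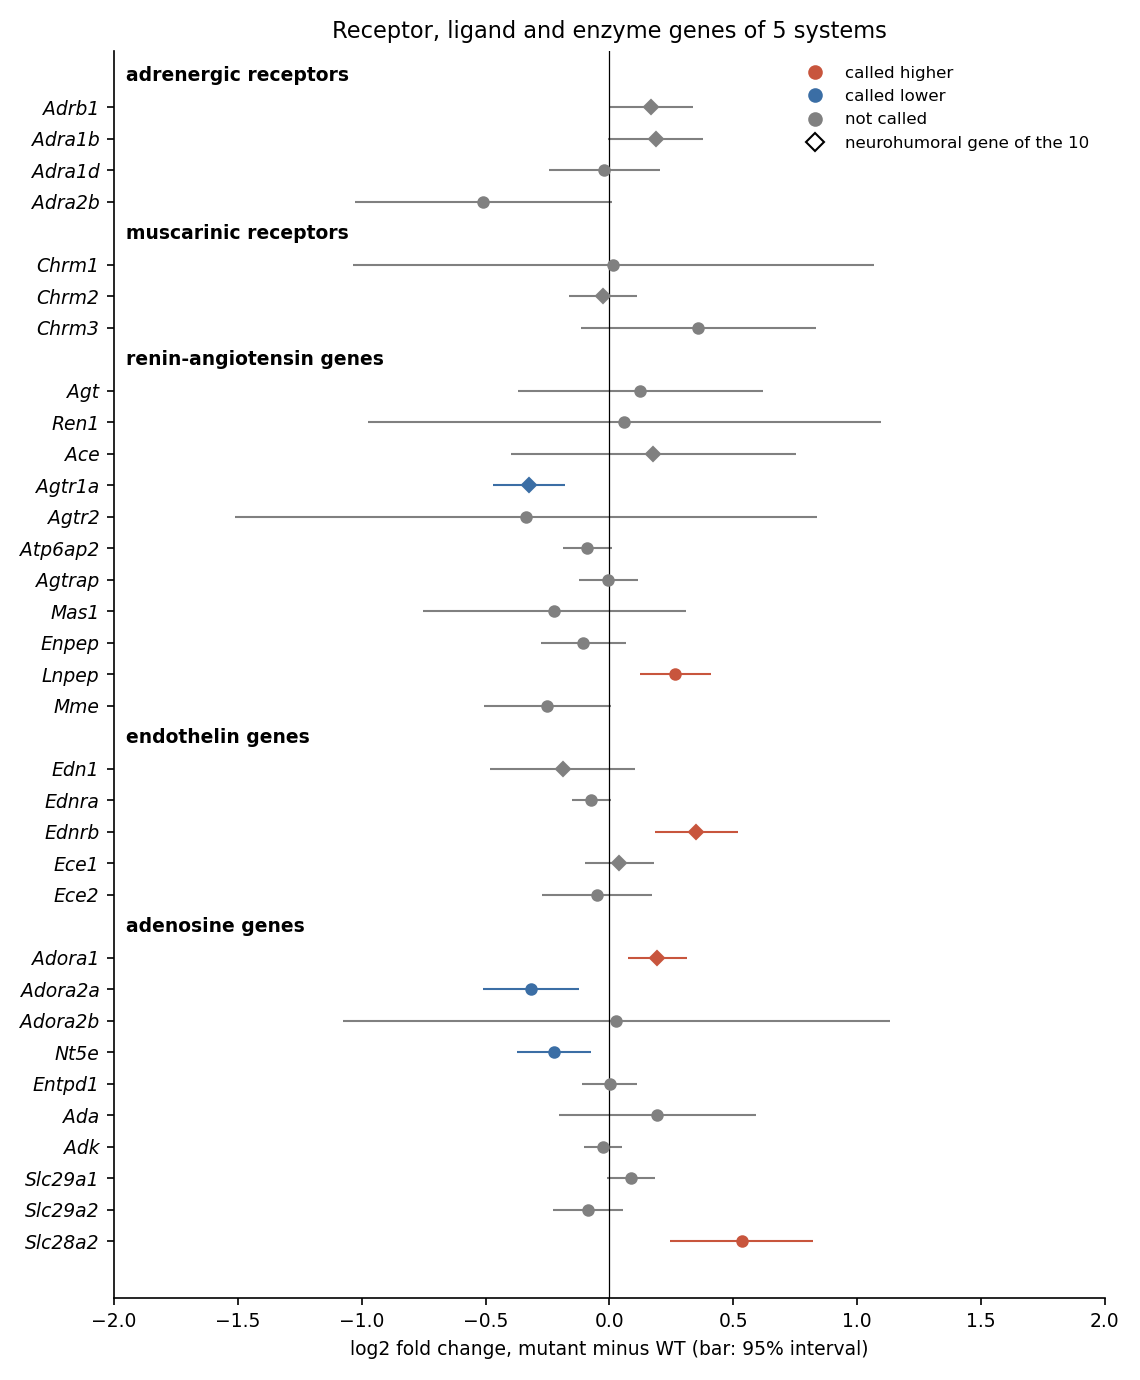
Log2 fold change (mutant minus WT) with its 95% interval for 33 of the 35 tested genes of 5 receptor, ligand and enzyme lists (the other 2, neither called, are not shown); diamonds are the members described here. Of these genes 4 were called higher (red) and 3 lower (blue), and the intervals of Agtr2 and Adora2b span more than those of any called gene.

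Over the 5 lists of adrenergic, muscarinic, angiotensin, endothelin and adenosine genes, 35 of 45 genes were tested, and 4 rose and 3 fell. Their median log2 fold change was -0.0046. Genes that act downstream of these receptors, together with those that make or break down catecholamines and acetylcholine, formed 5 further lists of 81 genes. Of these, 77 were tested, and 8 rose and 11 fell, with a median of -0.01. Over all tested genes 5.75% were called higher and 7.49% lower, which is the background for these counts and for each list above and below. No list was compared with that background by a test.

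Receptor regulators moved in both directions. Of 15 receptor kinases, arrestins and RGS proteins, 3 rose and 3 fell, with a median of 0.0013. Rgs6, which ends Gi signalling below M2 and A1 receptors, rose from 37.1 ± 1.42 to 45.7 ± 3.40 CPM (log2 fold change 0.30 ± 0.06 SE, adjusted p = 0.0028, edgeR). The β-arrestin gene Arrb1 rose from 72.3 ± 4.06 to 83.9 ± 2.82 CPM (0.22 ± 0.05, adjusted p = 0.0053, edgeR). Rgs2, which restrains Gq signalling below α1, angiotensin and endothelin receptors, fell from 35.7 ± 2.84 to 26.2 ± 2.999 CPM (-0.45 ± 0.08, adjusted p = 0.0025, edgeR). Rgs16 fell from 12.1 ± 1.54 to 7.97 ± 0.99 CPM (-0.61 ± 0.11, adjusted p = 0.0021, edgeR). These 4 calls held without each library in turn. With the level of Xist as a covariate, only Rgs6 among them was still called.

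Among 16 G protein subunits 1 rose and 1 fell, with a median of -0.04. The γ subunit gene Gng2 rose (0.24 ± 0.06 SE, adjusted p = 0.011, edgeR). Within the 5 libraries with airway RNA Gng2 was not called (0.18, adjusted p = 0.087, edgeR). It stood at 0.26 in the other 3, of which 1 is WT. Gna12 fell (-0.12 ± 0.04 SE, adjusted p = 0.046), a call lost without any 1 of 7 libraries (all but WT replicate 3, adjusted p from 0.065 to 0.13). Of 20 genes for cyclic AMP signalling and the muscarinic potassium channel, none rose and 4 fell, with a median of -0.0038. Adcy6, a main adenylyl cyclase of cardiomyocytes, fell from 524 ± 24.8 to 426 ± 17.1 CPM (-0.30 ± 0.04, adjusted p = 0.00041, edgeR). Prkar1a, a regulatory subunit of protein kinase A, fell from 742 ± 15.1 to 646 ± 27.9 CPM (-0.20 ± 0.04, adjusted p = 0.0039, edgeR). The channel subunits opened by M2 and A1 receptors, Kcnj3 (-0.0027 ± 0.09) and Kcnj5 (0.13 ± 0.05), were not called.

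Of 16 genes for phospholipase C and protein kinase C signalling, 1 rose and 2 fell, with a median of 0.0069. The calcineurin regulator and target Rcan1 fell from 117 ± 7.64 to 89.5 ± 4.98 CPM (-0.39 ± 0.05 SE, adjusted p = 0.00017, edgeR). Prkcd fell (-0.16 ± 0.05, adjusted p = 0.036), a call lost without any 1 of 6 libraries (all but WT replicate 3 and mutant replicate 1, adjusted p from 0.056 to 0.097). The inositol trisphosphate receptor gene Itpr3 rose (0.24 ± 0.06, adjusted p = 0.022), and that call needed both mutant replicates 2 and 4 (adjusted p with either left out, 0.057 to 0.061, edgeR). Itpr3 was also not called within the 5 libraries with airway RNA (0.20, adjusted p = 0.054, edgeR). Of 14 genes for supply and breakdown of catecholamines and acetylcholine, 10 were tested, 3 rose and 1 fell, with a median of 0.22. Butyrylcholinesterase (Bche) rose from 40.4 ± 1.37 to 57.0 ± 2.69 CPM (0.49 ± 0.05, adjusted p = 2.4e-05, edgeR). Monoamine oxidase B (Maob) rose from 10.98 ± 0.95 to 16.7 ± 1.07 CPM (0.60 ± 0.08, adjusted p = 0.00025, edgeR). In the 3 libraries without airway RNA, of which 1 is WT, Maob stood at a smaller 0.42. Tyrosine hydroxylase (Th), the marker of noradrenaline synthesis, had WT and mutant means of 0.69 and 0.65 CPM, and none of 7 tested autonomic neuron markers was called.

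**Figure D5:**
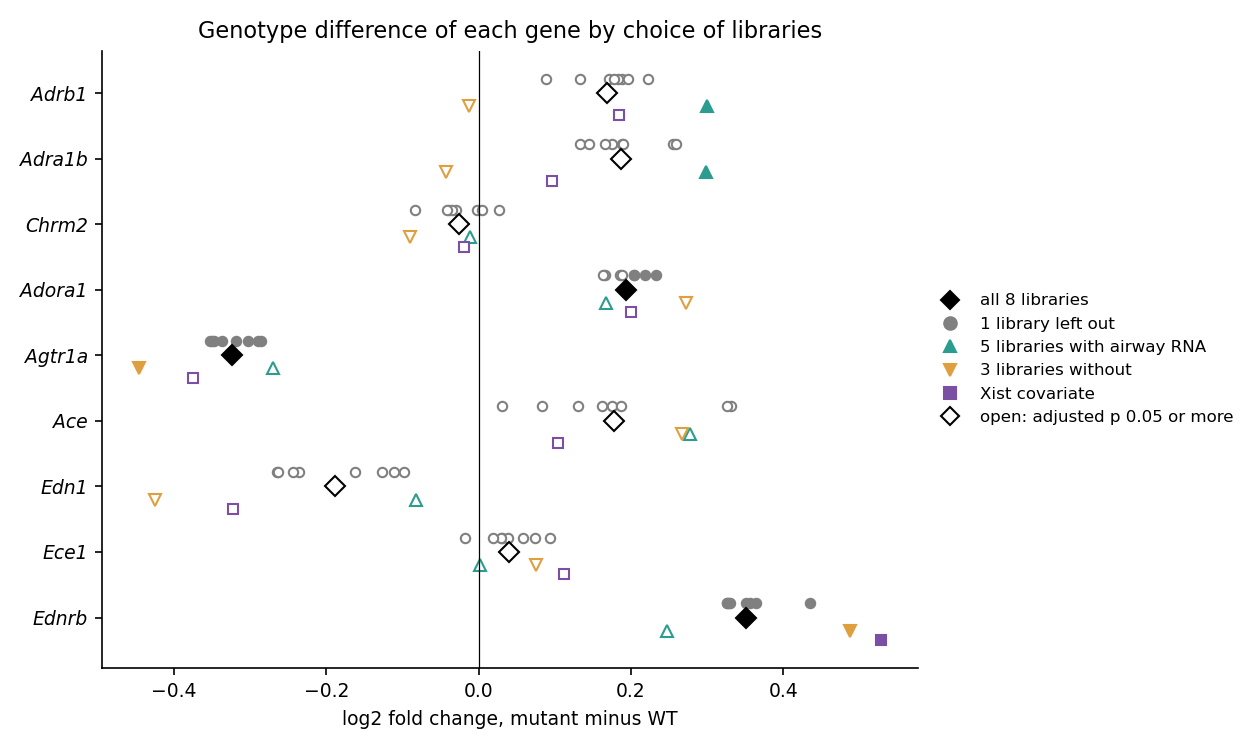
Log2 fold change (mutant minus WT) of the 9 tested members with all 8 libraries, with 1 library left out, within the 5 libraries with airway RNA, within the 3 without, and with Xist as a covariate; filled symbols have an adjusted p under 0.05. Agtr1a stays negative and Ednrb and Adora1 stay positive throughout, whereas Adrb1 and Adra1b are near 0 in the 3 libraries without airway RNA.

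The signs of Agtr1a, Ednrb and Adora1 were the same in each of 20 alternative analyses, and their calls held in 18, 18 and 12 of them. With the level of Xist as a covariate only Ednrb was called among the members (0.53, adjusted p = 0.014), and Agtr1a (-0.38, adjusted p = 0.12) and Adora1 (0.20, adjusted p = 0.35, edgeR) were not. Of the other called genes named from the receptor, signalling and supply lists, only Rgs6 and Bche were called with it (adjusted p = 0.029 and 0.0042, edgeR). Xist was at most 1.56 CPM without TMM in WT and at least 1.55 CPM in mutants, so this covariate moves with genotype.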

How the data were processed

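Per the submitters' processing notes, the authors trimmed reads with Trimmomatic 0.36, aligned them with STAR 2.5.2b to GRCm38 (mm10) and counted them per gene with featureCounts of Subread 1.5.2. The authors deposited unnormalized whole-number counts for each gene, and the series-wide table held the same values as the files per library. Column headers of the latter begin with "Male". No source used here names the annotation release or the strand setting. RNA was extracted with Trizol and libraries made with a TruSeq kit, per the labels' protocols. Symbols came from GENCODE M21 (48970 of 49315 genes), with coordinates and exon lengths from the count files.

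Genes were kept by filterByExpr (minimum count 10), scaled by TMM (factors 0.963 to 1.03) and compared with edgeR 4.0.16 (robust quasi-likelihood test, no covariate, R 4.3.3). Intervals use the fit's SE and residual degrees of freedom. The test was tested on simulated data. Replicate pairs differed beyond counting noise (chi-square per degree of freedom from 2.87 to 9.2). The members and lists were chosen with earlier results of these data known, and no list was tested as a set. Named genes were all 10 members, other called genes of the 5 receptor lists, and up to 2 per direction in each further list; some genes of the lists enter the counts but are not reported here by name. Alternatives were DESeq2 1.42.0, limma-voom 3.58.1, other scalings and filters, the same fit without robust estimation, leaving out each library, a replicate block, lung epithelium or Xist covariates, and libraries with or without airway RNA (Scgb3a2 threshold 10 CPM). Promoters are RefSeq sequences of GRCm38.p6.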

Additional observations from a re-analysis of the deposited data

Results flagged for a closer look

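In 6 of 56 gene and genotype groups, 1 library lay far from the other 3 for the size of the group's range, where chance gives about 1 in 20. Ednrb in mutant replicate 4 was 85.6 CPM, against 108.5 to 109.9 CPM in the other mutants. Arrb1 in mutant replicate 1 was 79.8 CPM, against 85.0 to 85.9 CPM. The other 4 were in WT replicate 2: Adora2a was low at 15.5 CPM (others 18.2 to 18.7), Itpr3 low at 26.5 CPM (others 32.1 to 32.6), Rgs16 high at 14.4 CPM (others 11.1 to 11.6) and Rgs2 high at 40.0 CPM (others 34.2 to 34.4). WT replicate 2 is the WT library without airway RNA (Scgb3a2 at 0.817 CPM), and mutant replicate 4 the library with the most of it (498 CPM). The part of this in the values was not tested.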

How the results depend on the processing

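Of 72 member values with 1 library left out, 66 kept their side of the threshold and 6 lost a call, and of 108 under other alternatives 100 kept it, 6 lost a call and 2 gained one. Genes called higher (942) ranged from 579 to 850 with 1 library left out (579 without WT replicate 1), and were 1856 with library totals, 609 among the 5 libraries with airway RNA, 510 among the 3 lacking it, and 137 with Xist as a covariate. Genes called lower (1226) were 800 in the libraries without airway RNA and 185 with Xist. With library totals, 68.4% of the called genes were higher, against 43.5% with TMM. Members called higher (2) ranged from 0 to 2 with 1 library left out (0 without WT replicate 2), and 1 was called in the libraries without airway RNA and 1 with Xist. In the libraries with airway RNA the 2 called higher were Adrb1 and Adra1b in place of Ednrb and Adora1. Members called lower (1) were 0 in the libraries with airway RNA and 0 with Xist. Adora2a turned to 0.0094 (adjusted p = 0.98) in the 3 libraries without airway RNA, where WT has 1 library and the spread is pooled. The cause was not tested. With the replicate number as a block, 1023 genes were higher and 1432 lower, and the same 3 members were called. Deviations from the genotype mean correlated at -0.482, 0.771, 0.558 and 0.144 between same-numbered libraries. WT replicate 2, without airway RNA, correlated at 0.624 and 0.771 with mutant replicates 1 and 2, which also lack it. With mutant replicates 3 and 4 it correlated at -0.643 and -0.767. These correlations go along with airway RNA, so whether the numbers pair the hearts cannot be told from them. Depth limits Adra1a, with 3 to 7 counts per library.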

Other observations

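The A3 adenosine receptor gene Adora3 was too scarce to test, and is singled out here after its values were seen. It had 4, 4, 3 and 4 counts in WT replicates 1 to 4 and 1, 0, 0 and 2 counts in mutant replicates 1 to 4, so the genotypes did not overlap, on 18 counts in all. Its exons overlap those of Tmigd3, which had 11 counts. The ligand gene Edn3, also chosen after its values were seen, had 7 to 10 counts in 6 libraries, 13 in mutant replicate 3 and 36 in mutant replicate 4, the library with Sftpc at 124 CPM.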
